A study of Mus musculus with 14 samples.

Results

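H3K27me3 was compared between mouse embryonic stem cells (mESCs) that lack the Wnt6 loop anchor and mESCs that lack the Hmx1 loop anchor, over every peak of the deposited table. The members are 4 of the 14 libraries of the series, 2 for the Wnt6 deletion and 2 for the Hmx1 deletion, chosen by their labels. All 4 were H3K27me3 Cut&Tag libraries of mESCs grown with leukaemia inhibitory factor on CD1 feeder cells. Both deletions were homozygous CRISPR-Cas9 alleles made in the G4 line, a hybrid of inbred mouse strains. In Cut&Tag an antibody brings the transposase Tn5 to the mark, and sequencing adapters are inserted there. The table holds no column for unedited cells, so each deletion served as the other's reference. Values of the 3 Hoxa deletion libraries are given only to show which side of a difference stands apart, and did not enter the test. The labels name no clones, so that a difference between deletions and a difference between clones cannot be told apart, and the 2 libraries of a deletion may be technical replicates.

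H3K27me3 is laid down by Polycomb repressive complexes at silent developmental genes, where it spreads from CpG-rich nucleation sites into the surrounding chromatin. In mESCs such sites contact each other over long distances, and the study asked whether loss of one anchor alters the mark beside it and at its loop partners. Wnt6 and Wnt10a encode secreted Wnt ligands, and Hmx1 encodes a homeodomain factor of the NK class with a role in eye and ear development. Pax3, a paired-box factor of neural crest and muscle, was named by the study as the partner of the Wnt6 anchor, and the homeobox genes Nkx1-1 and Msx1 as partners of the Hmx1 anchor.

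The promoters below are those of Wnt6, which names an anchor and was removed, of the 2 partners of the Hmx1 anchor and of Nap1l5, the gene with the largest rise outside the deletions. Each runs from 250 bases before to 50 bases after the transcript start, 5′ to 3′ on the gene's strand (RefSeq, GRCm38.p6), and capitals mark each CG dinucleotide, which reads the same on both strands.
Wnt6 (chr1:74771642-74771941, + strand): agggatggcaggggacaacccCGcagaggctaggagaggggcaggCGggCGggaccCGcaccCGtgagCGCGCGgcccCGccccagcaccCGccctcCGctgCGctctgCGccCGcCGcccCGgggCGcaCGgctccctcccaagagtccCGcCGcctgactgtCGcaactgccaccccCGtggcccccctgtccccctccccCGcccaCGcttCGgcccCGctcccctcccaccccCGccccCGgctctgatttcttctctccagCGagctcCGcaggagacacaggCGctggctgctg
Nkx1-1 (chr5:33434041-33434340, - strand): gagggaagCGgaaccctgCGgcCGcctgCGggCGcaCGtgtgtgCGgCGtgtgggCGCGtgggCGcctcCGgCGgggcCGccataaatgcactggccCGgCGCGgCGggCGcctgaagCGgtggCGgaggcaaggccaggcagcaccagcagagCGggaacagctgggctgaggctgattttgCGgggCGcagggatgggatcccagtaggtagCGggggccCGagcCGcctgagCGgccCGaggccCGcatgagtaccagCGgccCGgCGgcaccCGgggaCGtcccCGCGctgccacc
Msx1 (chr5:37824536-37824835, - strand): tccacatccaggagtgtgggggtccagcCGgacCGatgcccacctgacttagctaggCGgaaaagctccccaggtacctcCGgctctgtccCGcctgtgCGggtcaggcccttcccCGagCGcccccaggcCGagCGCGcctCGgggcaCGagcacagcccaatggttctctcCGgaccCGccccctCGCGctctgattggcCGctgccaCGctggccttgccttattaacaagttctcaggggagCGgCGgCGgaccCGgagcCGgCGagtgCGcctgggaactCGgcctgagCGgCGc
Nap1l5 (chr6:58907077-58907376, - strand): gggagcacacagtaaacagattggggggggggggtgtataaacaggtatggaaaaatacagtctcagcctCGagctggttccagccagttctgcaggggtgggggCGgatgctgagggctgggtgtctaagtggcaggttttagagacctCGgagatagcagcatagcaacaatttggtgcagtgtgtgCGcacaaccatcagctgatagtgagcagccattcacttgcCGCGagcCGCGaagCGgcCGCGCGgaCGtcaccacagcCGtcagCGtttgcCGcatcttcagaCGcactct
The Nkx1-1 promoter held 37 CG, a number reached by 5.58% of all 32851 promoters of this length. Wnt6 and Msx1 held 31 and 29, a number reached by 10.6% and 12.9% of promoters. Nap1l5 held 17, which 31.4% of promoters reached. All 4 lay above the median of 7 CG per promoter, and each was overlapped by 1 tested peak.

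The 4 libraries held between 6016500 and 36563541 counts over 74458 peaks. The smallest was replicate 1 of the Hmx1 deletion, in which the median peak had 23 counts, against 148 in replicate 2 of the Wnt6 deletion. Pearson's r of log2 CPM across peaks, which are not independent replicates, was 0.972 between the Wnt6 libraries and 0.952 between the Hmx1 libraries. Between libraries of different deletions it was 0.933 to 0.976. The highest of these, between the replicates 2 of both deletions, lay above both values within a deletion, so the libraries did not group by deletion in this measure. The chi-square of raw counts between 2 libraries, divided by its degrees of freedom, went the other way. It was 2.53 for the Wnt6 and 2.28 for the Hmx1 libraries, and 2.81 to 5.30 for pairs of different deletions. The part of library depth in either measure was not tested. As a check of the labelled cell type, 7 of the 10 mESC marker genes and 7 of the 10 feeder fibroblast marker genes had a peak. Median H3K27me3 per kb of gene was 0.126 to 0.161 CPM over the mESC markers and 1.65 to 1.91 CPM over the fibroblast markers, with both deletions in the same range. The mESC markers Dppa5a, Sall4 and Lin28a and the fibroblast markers Col3a1, Lum and Postn had no peak. Single markers departed from these medians, with the mESC markers Klf4 at 1.69 to 2.02 and Esrrb at 1.28 to 1.43 CPM per kb. The fibroblast marker Dcn stood at 0.0404 to 0.0799.

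The deleted stretches were located from the counts and checked both labels. In the Wnt6 deletion 34 consecutive peaks on chromosome 1, from 74768523 to 74901291 (132.8 kb), were missing, over Wnt6, Wnt10a, Cdk5r2, Fev and Cryba2. The peak at the Wnt6 start stood at 1.23 and 0.784 CPM in the Wnt6 deletion and at 149 and 170 CPM in the Hmx1 deletion. Summed over the stretch, 0.540% ± 0.0324 (SD, n = 2) of the level in the Hmx1 deletion was left. The last peak of the stretch, at 74899717 to 74901291, covered the microRNA gene Mir375 and stood at 1.13 and 0.888 CPM, against 98.9 and 107 CPM in the Hmx1 deletion. The microRNA was removed with the Wnt genes, and only its 5p arm is shown, because the sequence source used here held no entry for the other arm. The capitals mark the seed of the 5p arm, bases 2 to 8 (RefSeq, GRCm38.p6, chr1:74900696-74900717, - strand).
mmu-miR-375-5p: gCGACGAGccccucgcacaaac
In the Hmx1 deletion 11 peaks on chromosome 5, from 35382872 to 35401827 (18.95 kb), were missing. The peak over the Hmx1 start stood at 137 and 112 CPM in the Wnt6 deletion and at 0.338 and 0.472 CPM in the Hmx1 deletion, and 0.285% ± 0.0944 (SD, n = 2) of the summed level was left. These stretches were chosen by their values, so their levels are a description and nothing is read from calls inside them.

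Outside the stretches H3K27me3 differed at few peaks. The call rule asked for a log2 fold change beyond 1 in size together with an adjusted p under 0.05, from the quasi-likelihood test of edgeR over 74386 peaks, and positive values are higher in the Wnt6 deletion. Of all tested peaks 70 were called (0.0941%), 27 higher (0.0363%) and 43 lower (0.0578%), and 45 of the 70 lay in the stretches, where the choice of the peaks fixed the call. By this rule 25 of 74341 peaks outside the stretches were called (0.0336%), 16 higher (0.0215%) and 9 lower (0.0121%) in the Wnt6 deletion. With offsets that depend on peak abundance the split was 12 higher and 11 lower. Of the 25 called peaks, 14 lay within 100 kb of a stretch, where 24.6% of 57 peaks were called, and 11 lay elsewhere, where 0.0148% of 74284 were. DESeq2 called 14 peaks, all among the 25. Leaving out each library in turn leaves 1 library in a group, and each such fit lost part of the 25 calls and added others. Most peaks were called without replicate 2 of the Hmx1 deletion. Without either library of the Wnt6 deletion more peaks were called lower than higher, so the split by direction was not stable. The plot of all tested peaks shows the stretches, the called peaks and the smaller changes described further below against the other peaks.

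**Figure D1:**
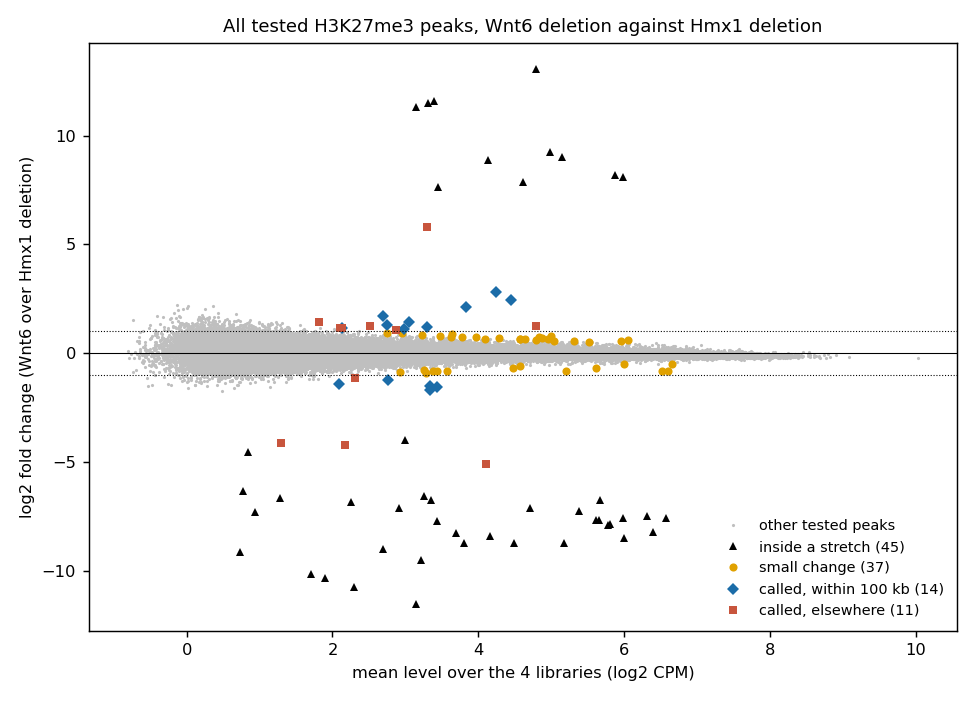
Log2 fold change of every tested H3K27me3 peak (Wnt6 deletion over Hmx1 deletion, y axis) against its mean level in log2 CPM over the 4 libraries (x axis), with dotted lines at a log2 fold change of 1 and -1. The peaks inside the stretches have medians of -7.70 (34 peaks, Wnt6) and 8.99 (11 peaks, Hmx1), and the 25 called peaks outside them between -5.11 and 5.78.

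On chromosome 1, H3K27me3 was lower in the Wnt6 deletion right beside the missing stretch and nowhere else by the call rule. All 5 called peaks of the 4868 tested there lay within 100 kb and were lower, 4 in Cfap65, a gene for a protein of cilia and flagella, and 1 at Wnt6. None was called among 451 peaks between 0.1 and 10 Mb away or among 4389 further away, where 42 and 220 had an unadjusted edgeR p under 0.05. Over all 74341 peaks outside the stretches 4061 had such a p (5.46%). DESeq2 called 3 of the 5. Without any fold change minimum 11 peaks of chromosome 1 passed the adjusted p.

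The Cfap65 peak nearest the stretch, 1.03 kb beyond it at 74902317 to 74902664, stood at 6.07 and 4.23 CPM in the Wnt6 deletion and at 17.2 and 15.0 CPM in the Hmx1 deletion. The Hoxa deletion libraries stood at 13.8, 16.0 and 16.0 CPM. This is a log2 fold change of -1.71 ± 0.199 (SE, edgeR adjusted p = 1.05e-14). The groups did not overlap, as at 35.8% of all peaks outside the stretches, and the Wnt6 deletion was the genotype that stood apart. The next Cfap65 peaks, at 2.94, 4.42 and 6.05 kb, changed by -1.55, -1.51 and -1.42. The value at 6.05 kb rested on single libraries, since omitting replicate 2 of the Wnt6 deletion gave -2.39 and omitting replicate 1 gave -1.11, no longer called, and the call was also lost with DESeq2 and with downsampled counts. On the other side, the peak 4.02 kb from the stretch, inside the RefSeq span of Wnt6, stood at 5.04 and 3.55 CPM in the Wnt6 deletion against 7.94 and 10.6 CPM (log2 fold change -1.25, edgeR adjusted p = 3.32e-05). Its call was lost without replicate 2 of the Wnt6 deletion (-0.94), without replicate 2 of the Hmx1 deletion (-0.97), with DESeq2 and with downsampled counts. At all 5 peaks the Hoxa deletion mean lay nearer the Hmx1 deletion, in CPM as in log2 CPM.

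The difference beside the Wnt6 stretch became smaller with distance. The median log2 fold change was -1.46 over the 6 peaks within 10 kb, of which 5 were called, -0.48 over 8 peaks at 10 to 25 kb, -0.27 over 8 peaks at 25 to 50 kb and 0.07 over 6 peaks at 50 to 100 kb. On the Cfap65 side all 5 peaks at 10 to 25 kb were lower, with a median of -0.62, whereas the 3 peaks at this distance on the other side had a median of -0.07. Ihh, which encodes the ligand Indian hedgehog, lies beyond Cfap65, and its strongest peak, 46.6 kb away, stood at 373 and 342 CPM in the Wnt6 deletion and at 342 and 347 CPM in the Hmx1 deletion. Over all 28 peaks within 100 kb the median was -0.37, against 0.004 over all tested peaks. It was -0.27 to -0.35 with each library left out and 0.09 over 1 Mb. Farther out the direction was the other one, with a median of 0.15 over 136 peaks at 250 to 1000 kb. Of these, 97 were higher and 39 lower in the Wnt6 deletion. An unadjusted edgeR p under 0.05 was found at 23 of the 136, and none was called.

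On chromosome 5, the peaks beside the Hmx1 stretch were lower in the Hmx1 deletion, and so higher in the Wnt6 deletion. Of 29 peaks within 100 kb, 9 were called, all higher in the Wnt6 deletion (31.0%, against 0.0215% of all peaks outside the stretches). None of 763 peaks between 0.1 and 10 Mb was called, where 23 had an unadjusted edgeR p under 0.05. DESeq2 called 9 of the 15 called peaks of the chromosome. Hmx1 is the nearest protein-coding gene of all 9 flanking peaks, and 1 each overlaps the noncoding genes 4930478P22Rik and Gm40283.

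The nearest peak, 0.551 kb beyond the stretch at 35402378 to 35403142, stood at 27.6 and 35.1 CPM in the Wnt6 deletion and at 5.92 and 3.97 CPM in the Hmx1 deletion. The Hoxa deletion libraries stood at 32.6, 32.3 and 29.8 CPM. This is a log2 fold change of 2.81 ± 0.184 (SE, edgeR adjusted p = 1.16e-49). With a cutoff of 25% in place of 10% for the stretch, the stretch held 12 peaks and ended at 35403142, with this peak inside it. Whether the peak was itself partly deleted was not tested. The Wnt6 and Hoxa deletions thus lay together and the Hmx1 deletion apart from them. The peak 2.42 kb away stood at 35.2 and 37.1 CPM against 3.55 and 8.07 CPM, a change of 2.42. The peak 1.47 kb away stood at 19.9 and 23.9 CPM against 5.92 and 4.76 CPM, a change of 2.12. On the lower-coordinate side the first peak, 9.33 kb away, stood at 9.88 and 8.94 CPM against 2.70 and 2.95 CPM (log2 fold change 1.68, edgeR adjusted p = 9.22e-09). The remaining 5 called peaks, 4.67 to 20.6 kb away, changed by 1.09 to 1.43. The one 12.0 kb away was called in only 6 of 17 alternative settings, and the farthest in 14. On the scale of mean log2 CPM all 9 had the Hoxa deletion nearer the Wnt6 deletion.

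Within 10 kb of the Hmx1 stretch 6 of 6 peaks were called, with a median log2 fold change of 1.90, and 3 of 5 at 10 to 25 kb, with a median of 1.28. The medians at 25 to 50 kb and 50 to 100 kb were 0.32 over 7 peaks and 0.07 over 11 peaks, with no calls. Over the 29 peaks the median was 0.51, and it was 1.19 within 50 kb and 0.14 within 1 Mb. The lower genotype was thus, on both chromosomes, the one that carries the neighbouring deletion, and no peak more than 25 kb from a stretch and within 10 Mb of it was called. Peak widths and levels differ between the flanks, so the sizes on the 2 chromosomes were not compared by a test.

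**Figure D2:**
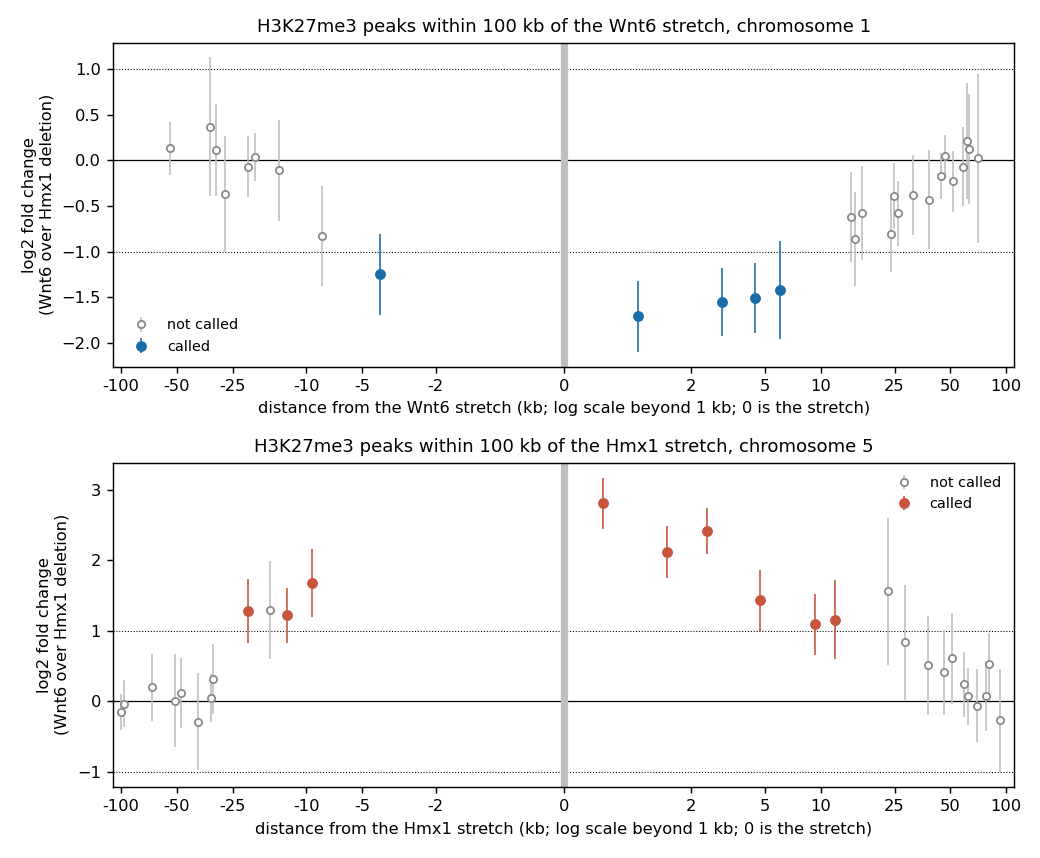
Log2 fold change (Wnt6 over Hmx1 deletion, y axis, bars 95% intervals) of tested peaks within 100 kb of each stretch against distance in kb from it (x axis, logarithmic beyond 1 kb), with called peaks filled. The 5 called peaks by the Wnt6 stretch lie at -1.71 to -1.25 and the 9 by the Hmx1 stretch at 1.09 to 2.81, all within 25 kb.

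The loop partners showed no called peak. Pax3 had 26 tested peaks 3.20 Mb or more from the Wnt6 stretch, with a median log2 fold change of 0.04 and a range of -0.38 to 0.56, and none had an unadjusted edgeR p under 0.05. The peak at its higher-coordinate end stood at 74.6 and 72.2 CPM in the Wnt6 deletion and 81.6 and 79.0 CPM in the Hmx1 deletion (log2 fold change -0.13, 95% interval -0.38 to 0.11). The peak at the other end was weak, at 2.37 and 2.19 CPM against 2.03 and 1.57 CPM, with a log2 fold change of 0.39 and a wider 95% interval of -0.41 to 1.19. A log2 fold change of 1 in size lay inside the interval at 4 of the 26 peaks.

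The 11 peaks of Nkx1-1 and Msx1 had a median of -0.12, which was -0.18 without replicate 1 and -0.07 without replicate 2 of the Wnt6 deletion. With offsets that depend on peak abundance it was -0.05. Their median level was 57.1 to 68.7 CPM by library, and the 3875 peaks of the genome above a log2 CPM of 6 had a median of -0.084. An unadjusted edgeR p under 0.05 was found at 3 of the 11, beside 4061 of all 74341 peaks outside the stretches (5.46%). At the Nkx1-1 promoter shown above the peak stood at 111 and 104 CPM in the Wnt6 deletion and at 109 and 116 CPM in the Hmx1 deletion (log2 fold change -0.08, 95% interval -0.31 to 0.16). At the Msx1 promoter it stood at 131 and 123 CPM against 163 and 145 CPM (log2 fold change -0.28, 95% interval -0.51 to -0.05, edgeR adjusted p = 0.816). The Msx1 values were higher in both Hmx1 deletion libraries than in both Wnt6 deletion libraries. The Hoxa deletion stood at 162, 127 and 143 CPM there, across both ranges.

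The remaining 11 called peaks lay more than 10 Mb from the stretches or on other chromosomes. At all 11 both Hmx1 deletion libraries lay beyond the other 5 libraries. How many of all peaks show this separation from the 5 was not determined. Separation from the Wnt6 libraries is in part built into the call, and these 2 groups did not overlap at 35.8% of all peaks outside the stretches. The mean log2 CPM of the Hoxa deletion lay nearer the Wnt6 deletion at all 11, a share not determined over all peaks. In mean CPM it was nearer the Hmx1 deletion at Myo1h and Ppm1k, where at Ppm1k the means were 5.79 in the Wnt6, 4.00 in the Hoxa and 2.44 in the Hmx1 deletion. The 11 called peaks comprise 6 of 3827 peaks (0.157%) on chromosome 5, of which 2 were higher and 4 lower in the Wnt6 deletion. The rest are 5 of 64854 peaks (0.00771%) on other chromosomes, all higher in the Wnt6 deletion. DESeq2 called 2 of these 5, and without replicate 2 of the Hmx1 deletion 75 peaks were called there. On chromosomes other than 1 and 5, 3487 peaks had an unadjusted edgeR p under 0.05.

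The largest fall was in B3glct, which encodes a glucosyltransferase of secreted proteins, 114 Mb from the Hmx1 stretch. The peak at 149737831 to 149739344 stood at 0.926 and 1.05 CPM in the Wnt6 deletion and at 38.9 and 32.8 CPM in the Hmx1 deletion. The Hoxa deletion stood at 1.29, 1.60 and 1.03 CPM. The Hmx1 deletion alone held the mark at this level, with a log2 fold change of -5.11 ± 0.218 (SE, edgeR adjusted p = 7.03e-118). The peak at the B3glct start, by contrast, stood at 32.6 ± 4.89 CPM in the Wnt6 deletion and 34.9 ± 3.05 CPM in the Hmx1 deletion (SD, n = 2 each), a log2 fold change of -0.11. Fry, a gene for a microtubule-binding protein, followed at 115 Mb. Its peak at 150165208 stood at 0.515 and 0.470 CPM against 8.45 and 9.64 CPM (log2 fold change -4.24), and that at 150163555 changed by -4.11. Between the B3glct and Fry peaks 27 of 29 tested peaks were lower in the Wnt6 deletion, with a median of -0.705, 19 with an unadjusted edgeR p under 0.05 and 1 past the adjusted p, an interval chosen after the values were seen. That peak, Fry at 150118518, stood at 31.8 and 22.8 CPM against 50.7 and 45.1 CPM (log2 fold change -0.84).

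The largest rise was at Nap1l5, an imprinted gene that lies inside an intron of Herc3 and is expressed from the paternal allele. The peak at 58906606 to 58907662 on chromosome 6, which holds the promoter shown above, stood at 18.4 and 17.6 CPM in the Wnt6 deletion and at 0.338 and 0.315 CPM in the Hmx1 deletion, from only 2 and 8 counts. The Hoxa deletion stood at 23.7, 29.2 and 25.6 CPM. The log2 fold change was 5.78 with a 95% interval of 5.15 to 6.41 (edgeR adjusted p = 4.34e-69). The mark was thus nearly missing from the Hmx1 deletion at a peak where the other 5 libraries carried it. Nap1l5 was the only gene of the imprinted list with a called peak, among 62 genes with a tested peak.

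The other called peaks changed far less. Repin1, a zinc finger gene, stood at 41.9 and 36.0 CPM in the Wnt6 deletion and at 12.2 and 18.2 CPM in the Hmx1 deletion (log2 fold change 1.26, edgeR adjusted p = 2.06e-14). Zdhhc14, a palmitoyltransferase gene on chromosome 17, stood at 6.79 and 8.18 CPM against 2.70 and 3.38 CPM and was called in 14 of 17 alternative settings. Both had their groups apart and the Hoxa deletion at the level of the Wnt6 deletion. A peak 68.1 kb from Cox10 on chromosome 11 stood at 6.48 and 3.84 CPM against 0.676 and 2.24 CPM, with 4 and 57 counts in the Hmx1 libraries. The log2 fold change there, 1.43, became 2.81 without replicate 2 of the Hmx1 deletion and 1.09 without replicate 1, and it was called in 11 of 17 alternatives. The peak at Ppm1k, a mitochondrial phosphatase gene, changed by 1.14, with an edgeR adjusted p of 0.0476, and was called in 4 of them. On chromosome 5, Trafd1 changed by 1.05, Myo1h by 1.16 and a peak 13.4 kb from Rsbn1l by -1.16, with adjusted p-values from edgeR of 0.00267, 0.0323 and 0.00725. They were called in 11, 7 and 13 of the 17 alternatives, and the Myo1h call was lost with each library left out and with the replicate number as a block.

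**Figure D3:**
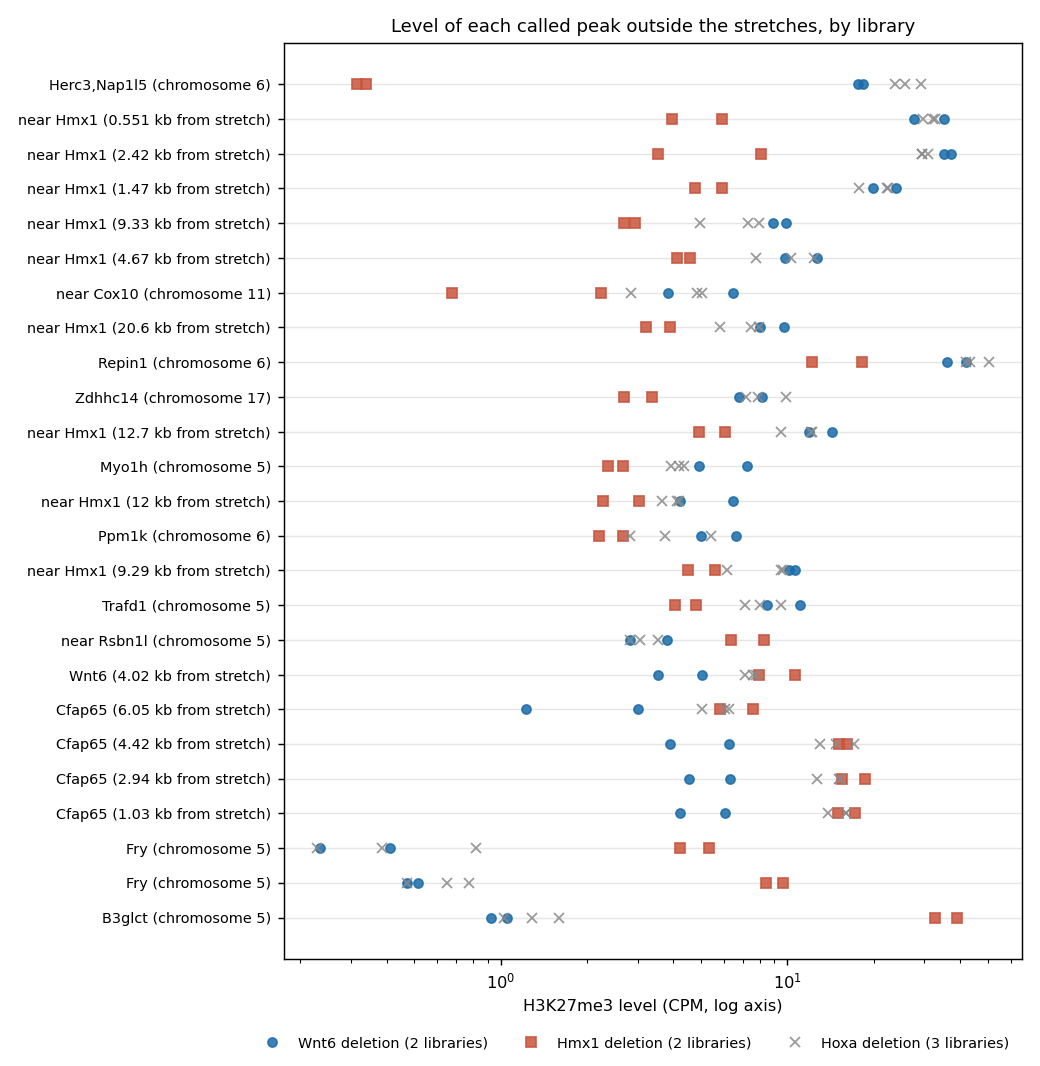
H3K27me3 level in CPM (logarithmic x axis) of the 25 called peaks outside the stretches in each library of the Wnt6, Hmx1 and Hoxa deletions (points), ordered by log2 fold change. The Hmx1 deletion libraries lie apart from the rest at Nap1l5 (0.338 and 0.315 CPM) and at B3glct (38.9 and 32.8 CPM), and the Wnt6 deletion libraries at Cfap65.

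The call rule with its fold change minimum left out smaller changes. A further 37 peaks passed the edgeR adjusted p with a smaller fold, 23 higher in the Wnt6 deletion by 0.52 to 0.92 and 14 lower by 0.51 to 0.94 on the log2 scale, where 0.0834% of peaks outside the stretches passed that p at any fold. Counts of this kind depended on the test and on depth, since DESeq2 kept 3 of the 23 and 5 of the 14, and downsampled counts 0 and 1. Each peak kept its direction in all 17 alternatives, but these refit the counts by which the peaks were picked, so nothing is concluded from it. The most stable was Chst13, a chondroitin sulfotransferase gene on chromosome 6, which stood at 70.1 and 70.8 CPM in the Wnt6 deletion and 123 and 126 CPM in the Hmx1 deletion (log2 fold change -0.83, edgeR adjusted p = 1.47e-08). The Hoxa deletion stood at 69.8, 72.8 and 85.2 CPM, beside the Wnt6 deletion.

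On chromosome 1, the spermatogenesis-associated gene Spata3 had 3 such peaks, 11.1 Mb from the Wnt6 stretch. The strongest stood at 69.3 and 63.9 CPM in the Wnt6 deletion and at 124 and 113 CPM in the Hmx1 deletion (log2 fold change -0.83, edgeR adjusted p = 1.22e-08). The Hoxa deletion stood at 107, 102 and 105 CPM, so that here the Wnt6 deletion stood apart. This peak passed the adjusted p in 16 of 17 alternatives. Tenm4, a teneurin gene on chromosome 7, stood at 36.2 and 38.4 CPM against 65.7 and 56.7 CPM (log2 fold change -0.70) and at 85.6, 78.6 and 83.3 CPM in the Hoxa deletion, so that the 3 genotypes did not overlap. The developmental factor gene Zic2 changed by -0.52, with 54.0 and 51.3 CPM against 87.5 and 65.4 CPM.

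Many small rises overlapped the start of a transcript. A start lay in 16 of the 23 small rises (69.6%) and in 2 of the 14 small falls (14.3%), beside 14.1% of all tested peaks and 5378 of the 21539 peaks whose level lay in the range of the small changes. These shares were not tested. Promoters under small rises held a median of 32 CG in 300 bases, against 21 over all promoters under a tested peak. The peaks were also wider, with a median of 1820 bp against 865 bp at like levels. Among them, Phlda3, a gene for a pleckstrin-homology protein, stood at 84.2 and 76.0 CPM in the Wnt6 deletion and 54.3 and 50.8 CPM in the Hmx1 deletion (log2 fold change 0.61), and Bbc3, which encodes the proapoptotic protein PUMA, at 29.6 and 30.3 CPM against 21.5 and 17.9 CPM (log2 fold change 0.64). Pitpnm2 and Klhdc2 changed by 0.73 and 0.86. In mean log2 CPM the Hoxa deletion lay nearer the Wnt6 deletion at 18 of the 23 rises, a share not determined over all peaks.

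At gene families that Polycomb silences in mESCs few peaks were called. Of 309 peaks at Wnt ligand, receptor and antagonist genes 1 was called, the flanking Wnt6 peak (0.324%, against 0.0336% of all peaks outside the stretches), and of 194 peaks at NK-class homeobox genes 3 were called, all of them beside the Hmx1 stretch. None was called among 165 peaks at Hox genes, 967 at other developmental transcription factor genes, 64 at pluripotency genes or 118 at fibroblast genes. At an unadjusted edgeR p under 0.05 there were 4, 69, 4 and 3, or 2.42%, 7.14%, 6.25% and 2.54% of the peaks, beside the 5.46% of all peaks outside the stretches. Of 311 peaks at imprinted genes only that of Nap1l5 was called.

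The list medians were -0.07 for Wnt pathway genes, -0.10 for NK-class genes, -0.09 for Hox genes and -0.12 for other developmental factors, beside 0.004 over all tested peaks. They were -0.08 for imprinted and -0.09 for pluripotency genes and -0.004 for fibroblast genes. Other scalings kept the sign of the first 6, at -0.03 to -0.12, and gave -0.01 to 0.04 for fibroblast genes. Leaving out each library gave -0.14 to -0.02 for Hox genes, -0.16 to -0.06 for NK-class genes and -0.16 to -0.06 for other developmental factors. For Hox genes the median was -0.03 without replicate 2 of the Wnt6 deletion and -0.02 without replicate 2 of the Hmx1 deletion. The spread between libraries (SD) was 0.0759, 0.0779 and 0.0679 in these 3 lists, close in size to the Hox and NK-class medians. The strongest peaks of the genome lay on the same side, since the 3875 peaks above a log2 CPM of 6 had a median of -0.084 and 78.5% of them were below 0, against 44.5% of the 37948 peaks at a log2 CPM of up to 2. With offsets that depend on abundance the strongest peaks had a median of -0.014. With the same offsets the list medians were -0.04 for Wnt pathway genes, -0.05 for NK-class genes and -0.06 for Hox genes. They were -0.08 for other developmental factors and -0.07 for imprinted genes, so all 5 lay nearer 0 than in the main fit. How much of each list median goes with peak level was not tested further.

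The strongest peaks of single list genes had values of this kind. At Hoxa3, the peak at 52169924 on chromosome 6 stood at 109 and 100 CPM in the Wnt6 deletion and at 113 and 116 CPM in the Hmx1 deletion, and at 0 CPM in all 3 Hoxa deletion libraries. Pax2 stood at 176 and 168 CPM against 191 and 201 CPM (log2 fold change -0.20, edgeR adjusted p = 0.925). Pax5 stood at 199 and 173 CPM against 222 and 198 CPM, with the groups overlapping. The fibroblast gene Col1a2 stood at 63.4 and 57.9 CPM against 66.1 and 67.9 CPM, and Col5a1 at 164 and 141 CPM against 148 and 143 CPM. The pluripotency gene Klf2 stood at 12.3 and 10.5 CPM against 14.4 and 13.4 CPM (log2 fold change -0.30, edgeR adjusted p = 0.925).

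**Figure D4:**
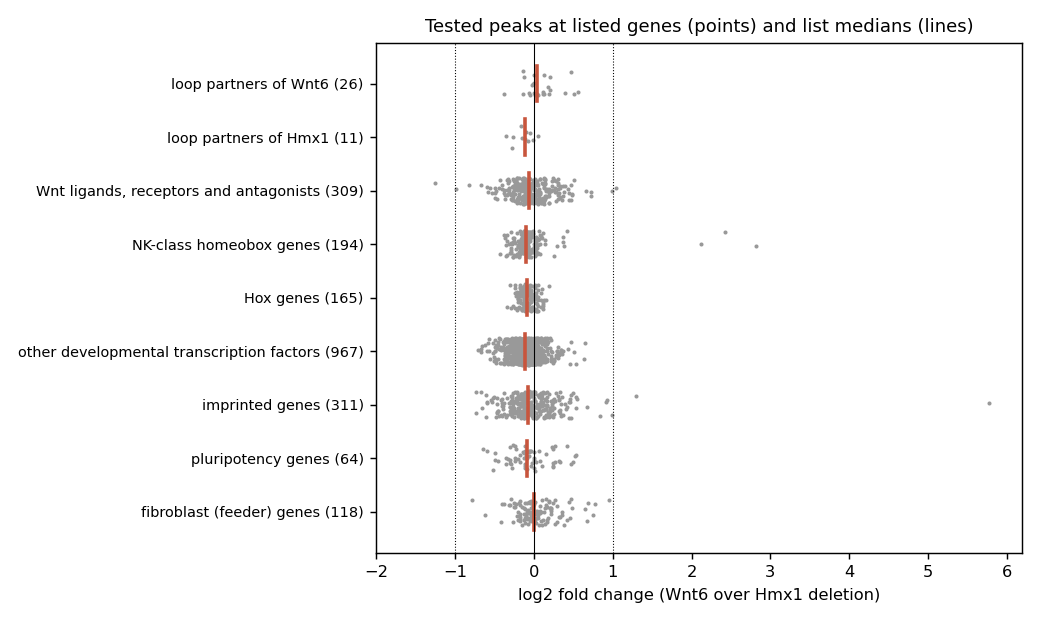
Log2 fold change (Wnt6 over Hmx1 deletion, x axis) of each tested peak at the genes of each list (points, number of peaks in brackets), with the median of the list as a line. Medians lie between -0.12 and 0.04, and points beyond 1 in size that were called belong to Wnt6 (-1.25), to the flank of Hmx1 (2.12 to 2.81) and to Nap1l5 (5.78).

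Over the autosomes and the X chromosome the medians stayed close to 0. Those of the autosomes lay between -0.035 and 0.033 and that of the X chromosome was -0.061. The Y chromosome had a median of 0.071 over 12 peaks. Chromosome M had -0.247 over only 7 peaks, where the 2 Wnt6 deletion libraries differed by a median of 1.1 in log2 CPM. Chromosomes 1 and 5, with the deletions, had medians of 0.002 and 0.021 outside the stretches. Called peaks lay on 5 chromosomes, and 14 of the 25 fell within 25 kb of a stretch.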

How the data were processed

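The authors deposited raw counts of the H3K27me3 Cut&Tag libraries, not normalized, over 1 list of peaks common to all libraries. Bowtie2, Trimmomatic, SAMtools, Picard, MACS2, deepTools and mm10 appear in the submitters' processing notes, with no role or version. How the peak list was made, how duplicates were treated and whether reads or fragments were counted are not given in the sources used here. The 7 IgG libraries were not used here, and columns were matched to samples by title.

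Peaks were tested with edgeR 4.0.16 and limma 3.58.1 (R 4.3.3) by glmQLFit and glmQLFTest on TMM factors after filterByExpr, which left 74386 of 74458 peaks. The prior degrees of freedom were infinite, so that all peaks shared a trended spread (common dispersion 0.0126). Standard errors came from the F statistic, and 95% intervals from the standard error. An exact permutation test of 2 against 2 libraries cannot go below 0.333 and was not used. CPM values were scaled by TMM factors over the 7 libraries, with 1 count worth 0.0261 to 0.169 CPM, and correlations used a prior count of 2. The deleted stretch was the longest run of peaks in which both libraries of a deletion lay under 10% of the mean of the others, where peaks with a mean count under 10 there did not break the run.

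Gene names and spans came from RefSeq (GRCm38.p6, the assembly of mm10) and matched 401 of 402 list genes, with peaks counted up to 5 kb from a gene. Peak positions are as deposited, with the start convention not stated. For want of exons, exonic and intronic peaks were not told apart.

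Named peaks were, on chromosomes 1 and 5, all called peaks or, above 10, the first 5 in each direction by adjusted p whose groups did not overlap. On other chromosomes they were the first 10 in each direction. Added were the peaks at the ends of the loop partners, up to 3 called genes or 4 leading genes of each list, and the leading peaks of B3glct, Fry and Nap1l5. Myo1h, Trafd1, the further peaks beside Hmx1, the smaller changes, Ihh and Mir375 were chosen after their values were seen. The members and lists were chosen with earlier results of these data known.

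Alternatives were DESeq2 1.42.0, other scalings and filters, all 7 libraries in the fit, a replicate block, downsampling, each library left out, and fits without the stretches. Robust and newer quasi-likelihood fits were chosen after seeing the data. The sequence of 1 further promoter is not reported here. The procedure was tested on simulated data. Plots used Python 3.11.15 and matplotlib 3.10.9.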

Additional observations from a re-analysis of the deposited data

How the results depend on the processing

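The replicate numbers did not pair the samples, since the deviations of same-numbered libraries from their group means correlated at -0.0122. With the replicate number as a block 22 peaks were called outside the stretches, all among the 25. Of 1018 alternative values 935 stayed as they were in direction and call, no called value changed sign, 40 moved, 1 gained a call (Fry at 150118518, without replicate 1 of the Wnt6 deletion) and 42 lost it, most often with downsampled counts or at Ppm1k.

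The count of called peaks was 25 over the genome, 5 on chromosome 1, 15 on chromosome 5 and 5 elsewhere. DESeq2 gave 14, 3, 9 and 2. Counts downsampled to the smallest library, which hold fewer reads by construction, gave 5, 0, 4 and 1, and these 5 peaks (B3glct, Nap1l5, Fry at 150165208 and the peaks 0.551 and 1.47 kb from the Hmx1 stretch) were called in all 17 alternatives. All 7 libraries in the fit gave 3 elsewhere. With no minimum on the fold change the counts were 62, 11 and 33 over the genome, on chromosome 1 and elsewhere. The newer quasi-likelihood method of edgeR 4 gave 39 over the genome and 15 elsewhere. Leaving out each library gave 21 to 103 over the genome, 4 to 9 on chromosome 1, 8 to 19 on chromosome 5 and 4 to 75 elsewhere. The highest counts over the genome, on chromosome 1 and elsewhere came without replicate 2 of the Hmx1 deletion, and the 8 on chromosome 5 without replicate 2 of the Wnt6 deletion. The cause was not tested.

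The median within 100 kb of the Wnt6 stretch was -0.53 downsampled, -0.35 to -0.27 with each library left out, -0.50 within 50 kb and 0.09 within 1 Mb. That by the Hmx1 stretch was 0.34 downsampled, 1.19 within 50 kb, 0.14 within 1 Mb and 0.39 to 0.50 with each library left out. At Pax3 it was 0.10 with library totals alone and -0.0032 downsampled. Library totals alone gave -0.03 for Wnt pathway genes, -0.03 for imprinted genes and -0.04 for pluripotency genes. They gave 0.09 as the highest chromosome median, with chromosomes Y and M left out. Abundance-dependent offsets gave -0.04 for Wnt pathway genes. Pluripotency genes had -0.07 with chromosome-median offsets, -0.07 downsampled and -0.13 to -0.07 with each library left out. Chromosome-median offsets gave -0.01 as the lowest chromosome median, again without chromosomes Y and M. A cutoff of 25% for the stretch took in the nearest peak beside Hmx1 and left 1.08% of the level in the Hmx1 stretch. The median peak of the smallest library held 23 counts.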
